A study of Mus musculus with 5 samples.

Results

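The tubulin isotype genes of the mouse were followed in ciliated cells of the embryonic lung shortly after they begin to differentiate. The members were the 10 genes Tuba1a, Tuba4a, Tuba8, Tubb2b, Tubb3, Tubb4a, Tubb5, Tubb6, Tubd1 and Tube1, each taken through the probe sets that the array's annotation gives to that gene alone. All 10 had such a probe set, so they make up 10 of 18193 genes and 17 of 45037 probe sets. All samples belonged to 1 group of 5 biological replicates, GFP+ cells sorted from E17.5 lungs of embryos from FOXJ1-GFP mice mated to the outbred ICR strain, with 1 Affymetrix array per replicate. In this line a FOXJ1 promoter drives GFP, so the gate selects cells by reporter level and not by the presence of cilia. There was no control group, and the E11.5 tip progenitors of the study are not analysed here. The labels call them biological replicates without naming litters or animals, and the p-values therefore cover the spread among these 5 samples alone.

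Microtubules are polymers of a dimer of α- and β-tubulin, and mammals encode several isotypes of each, which differ most in the acidic tail at their carboxyl end. The tails carry most of the modifications that axonemal microtubules acquire, among them glutamylation, glycylation and removal of the last tyrosine, whereas acetylation falls on a lysine inside the polymer and is the mark by which cilia are usually stained. The γ-tubulins start new microtubules, and δ- and ε-tubulin are needed for the triplet microtubules of centrioles and basal bodies, which a multiciliated cell makes in large numbers.

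A level is the deposited value of a probe set, already normalized between arrays and read here as log2. It was tested against 2 fixed levels with limma, one-sided, over all 45037 probe sets and adjusted by Benjamini-Hochberg. The first was a background level of 8.03, the 95th percentile over 138 genes not known for a role in these cells, 76 receptors of smell, pheromones and taste and 62 genes of other tissues. The second was a level of 5, below called the cut-off. The study set it on average expression in its comparison of ciliated cells with tip progenitors, and here it is applied to the mean of the ciliated cell arrays alone, which is another quantity. The means of 5 arrays are given with the SD (n = 5). Probe sets differ in how strongly they bind their target, so no gene's level is set above or below that of another gene, and each call is for the probe set tested.

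Most tubulin isotypes were above background in the sorted cells. Of the 10 members, 8 were called, including all 3 α-tubulins, 3 of 5 β-tubulins, Tubd1 and Tube1, and the exceptions were Tubb3 and Tubb4a. Of all genes on the array 57.6% were called in the same way. All 10 members were above 5, as were 81.3% of all genes. With each gene read by its probe set with the highest mean, the median level was 10.17 over the 10 members and 9.07 over all genes. This describes the signal and, given unequal binding, ranks no gene. Of the 17 single probe sets of the members 11 were above background, against 39.8% of all probe sets, and 16 were above 5, against 72.2%.

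**Figure D1:**
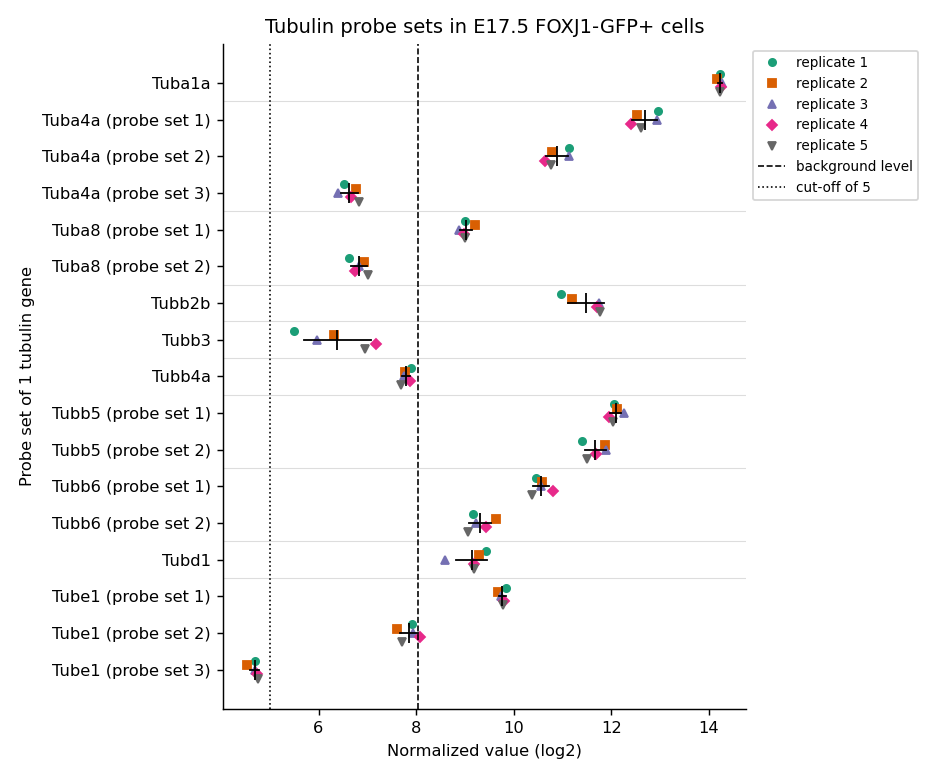
Normalized value (log2, horizontal axis) of each of the 17 probe sets of the 10 tubulin genes on the 5 arrays; symbols are replicates, vertical ticks the means and horizontal lines 1 SD. The dashed line is the background level of 8.03 and the dotted line the cut-off of 5. Tubb3, Tubb4a and further probe sets of Tuba4a, Tuba8 and Tube1 lie to the left of the dashed line.

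Among the α-tubulins, Tuba1a, an isotype of many cells and the main one of developing neurons, was at 14.23, 14.17, 14.28, 14.25 and 14.22 in replicates 1 to 5. The 5 arrays lay within 0.11 of each other, and the mean of 14.23 ± 0.04 was 6.20 above background (adjusted p = 1.39e-10, limma). Without replicate 2, the lowest, they lay within 0.05. Its only own probe set, 1418884_x_at, is of the type that Affymetrix marks as also matching other transcripts, and the neighbouring genes on the reference assembly are Tuba1b and Tuba1c. Signal from these paralogues cannot be told apart from that of Tuba1a. A probe set annotated to Tuba1a together with Gm6682, which was not used, was at 4.57 ± 0.18, and those of Tuba1b and Tuba1c also carry more than 1 gene symbol.

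Tuba4a, whose product is encoded without the final tyrosine of other α-tubulins, was at 12.96, 12.53, 12.93, 12.41 and 12.60. Replicates 1 and 3 were higher than the other 3, which did not overlap with them, and the mean was 12.68 ± 0.25, 4.65 above background (adjusted p = 1.54e-09, limma). Of 1298 genes within 0.5 of its level, 5.39% had an SD at least as large. Its second probe set, 1417374_at, was at 11.13, 10.79, 11.13, 10.63 and 10.76, with the same replicates high and replicate 4 lowest in both. The third, 1417375_at, was not above background, at 6.63 ± 0.17, and there replicates 1 and 3 were the lowest, at 6.53 and 6.40.

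Tuba8, a divergent isotype known from heart, muscle and testis, was nearer to background. Its values were 9.01, 9.21, 8.89, 8.98 and 9.01, with a mean of 9.02 ± 0.12, which was 0.99 above background (adjusted p = 2.19e-06, limma). The 5 arrays spanned 0.33, and 0.12 without replicate 2. The call was lost when the tissue-restricted genes alone set the background, where Tuba8 lay just below that level (-0.13). A second probe set, 1446771_at, was not above background at 6.83 ± 0.15. Of 12 measured markers of skeletal and cardiac muscle 4 were above background (33.3%, against 57.6% of all genes), Myh7, Acta1, Actc1 and Tnnt2. Acta1 and Ckm, another of the 12, are also among the genes that set the background level. The mean deviation of the 4 was highest in replicate 2 (0.36), as was Tuba8 (0.19). Acta1 (10.26) and Actc1 (10.86) were highest there, but Myh7 was highest in replicate 4 (9.68) and Tnnt2 in replicate 1 (8.94). The second Tuba8 probe set was highest in replicate 5 (7.02). The part of muscle RNA in the Tuba8 signal was not tested.

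The β-tubulin Tubb5, an isotype of dividing and most other cells, was at 12.07, 12.12, 12.26, 11.97 and 12.04. All 5 arrays were close together, and the mean of 12.09 ± 0.11 was 4.06 above background (adjusted p = 4.21e-10, limma). The range of 0.29 was 0.16 without replicate 3. Its other probe set, 1416256_a_at, was also above background, at 11.67 ± 0.22, and replicate 3 was the highest in both. The deviation of replicate 3 from the mean was 0.17 for Tubb5. For 11 genes of dividing cells, all above background as were 57.6% of all genes, it was 0.09 on average, the highest of the 5 replicates. Single genes differed. Mki67 (11.77), Top2a, Ccna2, Bub1, Aurkb and Birc5 were highest in replicate 3, whereas Ccnb2 (10.47), Cdk1 (12.20) and Plk1 (8.88) were lowest there. Whether dividing cells contributed to the Tubb5 level was not tested.

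Tubb6, a β-tubulin found at low level in many tissues, was at 10.46, 10.59, 10.57, 10.81 and 10.37, with replicate 4 apart from the rest. The mean was 10.56 ± 0.17, 2.53 above background (adjusted p = 1.29e-08, limma). Its range of 0.44 was 0.22 without replicate 4. The second probe set, 1446353_at, was above background too, at 9.31 ± 0.23. Replicate 5 was the lowest in both, and the highest was replicate 4 in the first and replicate 2 in the second.

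Tubb2b, an isotype best known from the developing brain, had the largest SD of the members above background, although the range of Tubd1 was wider (0.84 against 0.79). Its values were 10.98, 11.19, 11.75, 11.72 and 11.76. Replicates 1 and 2 lay below the other 3 without overlap, and those 3 were close to each other. The mean was 11.48 ± 0.37, 3.45 above background (adjusted p = 5.84e-08, limma), and 2.73% of 2416 genes of like level had an SD at least as large. The neighbouring and closely related gene Tubb2a was lowest in replicate 1 as well (10.79), but in replicate 2 it was at 11.22, within the other values, which ran from 11.17 to 11.37. A probe set shared by Tubb2b and Tubb2a-ps2, which was not used, was at 8.08, 8.54, 8.31, 8.10 and 8.54, so that replicate 2 was not low there.

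The 5 genes above background whose deviations from their own means were nearest to those of Tubb2b were Zfp692, 1700029I15Rik, Col20a1, Paxbp1 and Notch4, with mean absolute differences of 0.03 to 0.06 over 5 arrays, among 1379 genes with an SD at least 0.75 times that of Tubb2b. Zfp692 was at 9.58 and 9.87 in replicates 1 and 2, and at 10.41, 10.35 and 10.36 in the rest. With 5 points and this many candidates, near matches are a description only. Among the enzymes that act on tubulin, the glutamylase gene Ttll6 had the same replicates low, at 11.04 and 11.34 against 11.81 to 12.04, and the glycylase gene Ttll3 too, at 12.18 and 12.22 against 12.71, 12.81 and 12.58. The glutamylase gene Ttll7 had the opposite pattern, at 10.03 and 9.89 in replicates 1 and 2 against 9.17, 9.34 and 9.42 in the rest. The split was not particular to these enzymes. Of the ciliated cell markers, Cfap43 was at 12.87 and 13.11 in replicates 1 and 2 against 13.68, 13.54 and 13.39. Dnah5 went the other way, at 10.85 and 10.69 against 9.24, 9.74 and 9.69. The difference between the 3' and 5' control probe sets of Gapdh, a measure of RNA integrity, was 1.02 and 1.03 in replicates 1 and 2 and between 1.14 and 1.43 in the other 3. For the Actb control it was 0.61 and 0.51 in replicates 1 and 2 and between 0.67 and 0.72 in the others. The part of RNA integrity in these values was not tested.

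Tubb3, the β-tubulin commonly used to mark neurons, was not above background. It was at 5.50, 6.32, 5.97, 7.18 and 6.95, with every array below 8.03, and its mean of 6.38 ± 0.69 lay under the background level (-1.65; adjusted p = 1.0, limma). It was above the cut-off of 5 (adjusted p = 0.000429, limma). The spread was the largest among the members, and 1.9% of 1369 genes of like level had an SD at least as large. Among the settings run, Tubb3 was above background only when the receptor genes alone set that level (0.94 above 5.44, adjusted p = 0.00394, limma). Markers of neurons were mostly not above background either, with 2 of 10 called (20%, against 57.6% of all genes). These were Stmn2 at 9.73 ± 0.36 and Map2 at 9.99 ± 0.20, while the RNA-binding proteins Elavl3 and Elavl4 were at 7.73 ± 0.17 and 7.11 ± 0.25. Of 10 neuroendocrine markers, 8 were above background (80%, against the same 57.6%). Among them were Chga at 8.31 ± 0.21 and Resp18 at 11.52 ± 0.36, and Syp at 7.79 ± 0.28 and Insm1 at 7.64 ± 0.16 were not. Between the arrays, Stmn2 was lowest in replicate 1 (9.12) and highest in replicate 4 (10.04), as was Tubb3. Map2 was highest in replicate 1 (10.24) and lowest in replicate 4 (9.73). The mean deviation of Stmn2 and Map2 was lowest in replicate 1 (-0.18), and that of the 8 neuroendocrine markers was lowest in replicate 4 (-0.30). The part of neural cells in the Tubb3 values was not tested.

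Tubb4a, an isotype of brain, was at 7.90, 7.77, 7.76, 7.87 and 7.69. The arrays lay within 0.21 of each other and all below the background level, with a mean of 7.80 ± 0.09 (-0.23 from background; adjusted p = 1.0, limma), and 2.80 above the cut-off of 5 (adjusted p = 6.6e-10, limma). Its single probe set stood on the other side of the line when the background level itself came out lower. It lay 0.56 above background with the probe sets of each gene averaged (level 7.24), 0.82 above with probe sets that carry a suffix left out (level 6.97) and 2.36 above with the receptor genes alone (level 5.44), each time with a call. The side on which Tubb4a falls therefore depended on how the background was set.

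**Figure D2:**
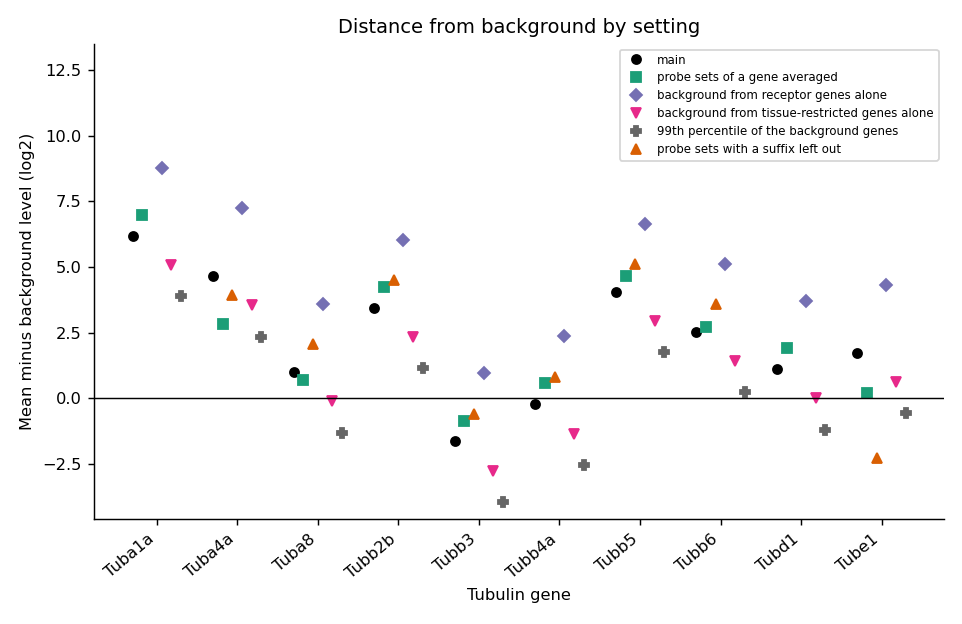
Mean of each tubulin gene minus the background level (log2, vertical axis) as reported and under 5 other settings of the probe sets or of the background genes; each symbol is 1 setting. Tuba1a, Tuba4a, Tubb2b, Tubb5 and Tubb6 stayed above 0 in every setting that gave them a value. Tuba8, Tubb3, Tubb4a, Tubd1 and Tube1 crossed it in at least 1 setting. Tuba1a and Tubd1 have no value with suffix probe sets left out.

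Both genes of the centriolar tubulins were above background by 1 probe set each. Tubd1, which encodes δ-tubulin, was at 9.43, 9.29, 8.60, 9.18 and 9.19, with replicate 3 apart from the others. The mean was 9.14 ± 0.32, 1.11 above background (adjusted p = 4.51e-05, limma). Without replicate 3 the range fell from 0.84 to 0.26 and the mean was 9.28. The call was lost where the background came from the tissue-restricted genes, with Tubd1 close to that level (-0.0069). The folding cofactor gene Tbcc was lowest in the same replicate, at 8.74 against 9.38 to 9.72, and the mean deviation of all 22 folding genes was lowest there too (-0.09), whereas that of 13 ciliated cell markers was close to 0 (0.0049). The 3' to 5' difference was highest in replicate 3 for the Gapdh control (1.43) but in replicate 4 for Actb (0.72, with 0.68 in replicate 3), and the part of RNA integrity in these values was not tested.

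Tube1, which encodes ε-tubulin, was even across the arrays, at 9.84, 9.68, 9.73, 9.81 and 9.79. Its mean was 9.77 ± 0.06, 1.74 above background (adjusted p = 2.25e-08, limma), and 95.6% of 2321 genes of like level varied at least as much. The call rested on 1431873_a_at. The other probe sets of Tube1, 1437942_x_at at 7.85 ± 0.19 and 1443481_at at 4.69 ± 0.09, were not above background, and with probe sets that carry a suffix left out the gene, then read by 1443481_at, lay below that setting's level (-2.29). Tedc1 and Tedc2, which encode proteins that form a complex with δ- and ε-tubulin, were both above background, at 10.82 ± 0.21 and 8.50 ± 0.25, but the call of Tedc2 was lost with tissue-restricted genes alone as background and at the 99th percentile (levels 9.15 and 10.34). Tedc1 was at 10.82, 10.47, 10.87, 10.89 and 11.02, and Tedc2 at 8.44, 8.27, 8.30, 8.88 and 8.59, each lowest in replicate 2, as was Tube1.

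The spread of the members between arrays had a median SD of 0.14, against 0.17 for all genes and 0.15 for all genes above background. It differed widely within the family. Tubb3, Tubb2b, Tubd1 and Tuba4a had SDs from 0.25 to 0.69, and Tuba1a, Tube1 and Tubb4a from 0.04 to 0.09. Single genes deviated in opposite directions on the same array, and the mean deviation of the 8 members above background had a range of 0.04 across replicates. For 13 markers of ciliated cells, all above background, that range was 0.09, with Foxj1 at 12.82 ± 0.08, Dnah9 at 12.71 ± 0.11 and Dnaic1 at 11.53 ± 0.06. Single markers varied more and in opposite directions. Dnah5, at 10.04 ± 0.69, was highest in replicate 1 (10.85) and lowest in replicate 3 (9.24). Cfap43, at 13.32 ± 0.33, was lowest in replicate 1 (12.87) and highest in replicate 3 (13.68).

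**Figure D3:**
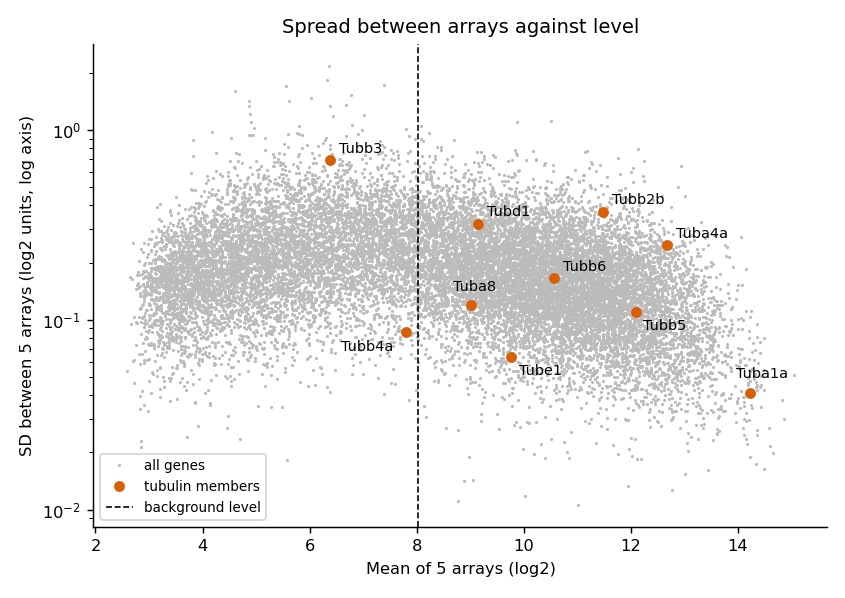
SD between the 5 arrays (log2 units, logarithmic vertical axis) against the mean level (log2, horizontal axis) for 18193 genes in grey and the 10 tubulin genes in orange, each read by its probe set with the highest mean. Tubb3, Tubb2b and Tuba4a lie near the upper edge of the genes of like level, and Tube1 and Tubb4a near the lower edge.

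Of 10 other tubulin genes, 6 had a probe set of their own and 4 of these were above background, a share of 66.7% that is near the 57.6% of all genes. Tubb4b, an isotype of cilia, was at 14.24, 14.28, 14.16, 14.27 and 14.20, with a mean of 14.23 ± 0.05 (6.20 above background, adjusted p = 1.39e-10, limma), although 5 further probe sets of Tubb4b had means between 2.83 and 5.82. Tubb2a was at 11.17 ± 0.22 and the γ-tubulin gene Tubg1 at 9.54 ± 0.11. Tuba3b, a testis isotype, was not above background at 3.50 ± 0.08, nor was Tubg2, the second γ-tubulin gene, at 4.76 ± 0.41.

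Tubb1, the β-tubulin of platelets and the megakaryocytes that form them, was also above background, at 12.17, 11.52, 12.63, 11.34 and 11.29 (mean 11.79 ± 0.58, 3.76 above background, adjusted p = 4.58e-07, limma). Replicates 1 and 3 were the highest, as they were for the first and second probe sets of Tuba4a. Its range of 1.33 was 0.88 without replicate 3. Of 7 measured markers of megakaryocytes and platelets, 6 were above background (85.7%, against 57.6% of all genes). Pf4 was at 11.47 ± 0.30, Ppbp at 11.03 ± 0.54 and Itga2b at 9.81 ± 0.37, while Gp5, at 8.23 ± 0.97, was not above background. The mean of the 7 ran from 9.76 in the lowest replicate to 10.76 in the highest. The 6 markers above background deviated from their means by 0.16, -0.39, 0.55, -0.15 and -0.17 in replicates 1 to 5, and Tuba4a by 0.27, -0.16, 0.25, -0.28 and -0.08. Replicates 1 and 3 were thus high in both, but they were lowest (6.53 and 6.40) in the third Tuba4a probe set, which was not above background. Whether platelet RNA made up part of the Tuba4a and Tubb1 signals was not tested. In RNA from a sorted population, more cells of a type and more transcript per cell cannot be told apart.

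**Figure D4:**
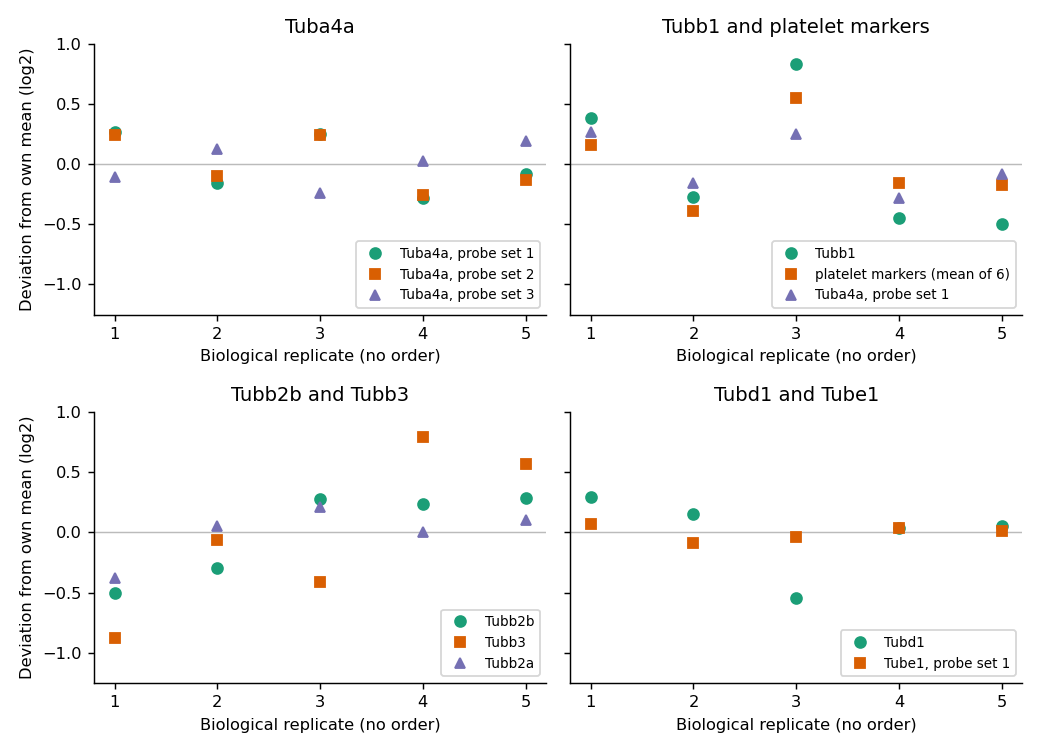
Deviation from its own mean over 5 arrays (log2, vertical axis) of tubulin probe sets, and of the mean of 6 platelet markers, in each biological replicate (horizontal axis); replicates have no order. Replicates 1 and 3 are high for 2 Tuba4a probe sets, Tubb1 and the platelet markers, replicates 1 and 2 are low for Tubb2b, and replicate 3 is low for Tubd1.

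Most genes that fold, seed and modify tubulin were above the background of 8.03, and fewer were at higher levels of it. All 22 genes of tubulin folding were called, which include the cofactors Tbca at 14.04 ± 0.06, Tbcb at 12.32 ± 0.16, Tbcc at 9.37 ± 0.38 and Tbcd at 10.92 ± 0.09. These cofactors join α- and β-tubulin into the dimer after the CCT chaperonin has folded them. All 11 genes of the γ-tubulin complex and its anchors were called, with Tubgcp2 at 9.74 ± 0.10, Tubgcp3 at 11.09 ± 0.10, Tubgcp4 at 11.43 ± 0.18 and Tubgcp5 at 9.11 ± 0.13. The median SD was 0.09 for the folding genes and 0.13 for the γ-tubulin complex. These shares of 100% stand beside 57.6% of all genes and were not tested as sets. With tissue-restricted genes alone as background, where 46.3% of all genes were called, 7 of 11 genes of the γ-tubulin complex were called, and at the 99th percentile, with 30.6% of all genes, 6 were. For the folding genes these counts were 21 and 20 of 22.

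Of 24 measured genes that modify tubulin, 20 were above background (83.3%, against 57.6% of all genes). At the 99th percentile 10 were, where 30.6% of all genes were called. Atat1, which acetylates the α-tubulin lysine, was at 10.46 ± 0.17, and Hdac6 and Sirt2, which remove that mark, at 9.83 ± 0.13 and 11.14 ± 0.03. Ttl, which puts the last tyrosine back, was at 9.92 ± 0.03. The ligase genes Ttll8 at 7.00 ± 0.22 and Ttll13 at 7.76 ± 0.41, Vash2, an enzyme that removes the tyrosine, at 7.60 ± 0.28 and Tpgs1, a subunit of a glutamylase complex, at 7.73 ± 0.19 were not above background. All 24 were above the cut-off of 5, as were 81.3% of all genes.

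Values of the whole series set the frame for these results. Array medians lay between 7.18 and 7.26, and Pearson's r between pairs of arrays between 0.987 and 0.994, taken across probe sets and not across independent replicates. Markers of other lung cells were above background beside those of ciliated cells, namely 5 of 6 for club cells, 7 of 7 for alveolar type 2 cells, 8 of 8 for endothelium, 8 of 10 for mesenchyme and 6 of 10 for white blood cells. The last share, 60%, is near the 57.6% of all genes. The exceptions were Gabrp (7.92 ± 0.41) of club cells, Dcn (8.04 ± 0.64) and Lum (4.91 ± 1.10) of mesenchyme, and Ptprc (7.33 ± 0.58), Itgam (4.23 ± 0.15), Aif1 (6.59 ± 0.34) and C1qa (6.65 ± 0.36) of white blood cells. The lists' mean deviations ranged over 1.38 for alveolar type 2 cells, 1.10 for white blood cells and 0.87 for endothelium, each lowest in replicate 1 (-0.71, -0.61 and -0.46), the replicate in which Tubb2b and Tubb3 were lowest. The part of these cells in the tubulin levels was not tested.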

How the data were processed

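GFP+ cells were sorted from E17.5 FOXJ1-GFP lungs after digestion with trypsin and EDTA, and the RNA was amplified, labelled with biotin and hybridised to Affymetrix mouse arrays, which the authors analysed with Bioconductor in R. The deposited log2 values, from 2.37 to 15.24, had been normalized between arrays by the authors. Neither labels nor methods state how, and the scale was read from the values. No value was missing and no arrays were identical. After removal of 64 control probe sets the rest were named through the platform annotation; 34945 carried 1 gene, 932 several and 9160 none here, and 99.4% of the first group matched an identifier of the GRCm38.p6 gene table, with 0 symbols changed. Each gene was read by its own probe set with the highest mean.

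The mean of each probe set was estimated in R 4.3.3 with limma 3.58.1 (lmFit, eBayes) and tested one-sided against the stated level, called at an adjusted p under 0.05. Of the 138 background genes 6 were themselves called. In simulated data on 45037 probe sets, 3.5% of 200 placed at a fixed level passed, as did 53.0%, 86.5% and 99.0% of those placed 0.25, 0.5 and 1 higher. Other steps used Python 3.11.15, numpy 2.4.6, pandas 2.3.3 and scipy 1.17.1. The number of arrays limits the precision, and 5 arrays are too few for correlations across samples. The members, lists, background genes and tests were chosen with earlier results of these data known. Named are all members, other tubulin genes, δ- and ε-tubulin partners and the 5 genes nearest to Tubb2b. Of each further list, up to 4 genes are named in its written order, and members that failed the call where 5 or fewer did. Ttll3, Ttll6, Ttll7, Dnaic1, Cfap43, Map2, Resp18, Actc1, Tnnt2 and Ckm were picked with their values in view. So were Ccna2, Cdk1, Bub1, Aurkb, Plk1 and Birc5. Alternatives averaged the probe sets, left out those with a suffix, renormalized the arrays, changed the background genes or percentile, required all 5 arrays above the level, raised the cut-off to 6 or left out each replicate.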

Additional observations from a re-analysis of the deposited data

Results flagged for a closer look

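Of 30 probe sets of single tubulin genes, 2 had 1 array set apart from the other four by more than 0.71 of the range over the 5 arrays; chance alone sets about 1 in 20 apart. The third probe set of Tube1, 1443481_at, was at 4.53 in replicate 2 and between 4.70 and 4.76 in the others (gap 0.717 of the range), far below background throughout. The probe set 1449318_at of Tubg2 was at 5.48 in replicate 1 and between 4.48 and 4.75 in the others (gap 0.726 of the range), likewise below background. The probe set that gave the Tube1 call is not among these.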

How the results depend on the processing

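The count of members above background was 8 of 10 without any 1 replicate (8 to 8), with either renormalization of the arrays and with all 5 arrays required above the level. It was 9 with probe sets averaged (56% of all genes), 6 of the 8 then measured without suffix probe sets (61.8%), 10 with receptor genes alone as background (77.3%) and 6 with tissue-restricted genes alone (46.3%). At the 99th in place of the 95th percentile, a level of 10.34, it was 4, with Tuba8 (-1.32), Tubd1 (-1.20) and Tube1 (-0.57) below it and Tubb6 0.22 above it without a call (adjusted p = 0.0646, limma); then 30.6% of all genes were called. With tissue-restricted genes alone (level 9.15) Tuba8 (-0.13) and Tubd1 (-0.0069) lay below; with receptor genes alone Tubb3 (0.94) and Tubb4a (2.36) lay above; Tubb4a also with probe sets averaged (0.56) or suffix probe sets left out (0.82), where Tube1 lay below (-2.29). Tuba1a and Tubd1 have only suffix probe sets and no value there. Where the setting changed only the background, the members' own values were the same. All 10 members were called above 5 in each leave-one-out run, 9 were called above 6, and 7 of 8 were called above 5 without suffix probe sets. No share of all genes is given for these runs, so the counts say nothing particular to the members. In the main setting 81.3% of all genes were above 5. The median SD of the members ran from 0.11 to 0.16 with 1 replicate left out. Of 65 genes on the 5 tubulin lists 59 were above background, and 40 with the 99th percentile, beside 57.6% and 30.6% of all genes. No paired analysis was possible because there was only 1 group.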
